A study of Homo sapiens with 6 samples.

Results

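The large subunit of the cytosolic ribosome is built from ribosomal RNA and a large set of proteins, and 44 genes that encode these proteins (RPL and RPLP genes) are described here out of 57500 genes in the count tables. The members were found by Ensembl identifier from a fixed list of symbols, each symbol matched 1 identifier, and pseudogenes were left out. The list follows what the genes encode rather than a measured value, but it was chosen with earlier results of these data known. The 44 genes lie on 18 chromosomes, and their merged exons are 1088 to 8626 bases long.

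The study sequenced RNA from mitochondria isolated from HepG2 cells, a human liver carcinoma line with wild-type genotype in the labels. Cells were exposed for 48 h to GenX, a short-chain perfluoroalkyl ether acid used in fluoropolymer production, at 10 µM or 100 µM, and controls received the DMSO vehicle alone (0 µM). Each dose had 2 libraries, 6 in all, made from total RNA of the mitochondrial preparation after removal of ribosomal RNA, and the labels put all of them in 1 batch. The labels do not say whether the 2 libraries of a dose came from separate cultures, so p-values measure the spread between these libraries, which may be technical. HepG2 is a single tumour-derived line.

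Large-subunit proteins are encoded in the nucleus and made in the cytosol, and most are imported into the nucleolus and assembled there with ribosomal RNA. The finished subunit joins amino acids at its peptidyl transferase centre, passes the new chain through an exit tunnel, and carries 2 flexible stalks, one of which recruits the translation factors. Messenger RNAs of these genes are among the most abundant in growing cells and are translated in the cytosol, which makes them markers of cytosolic RNA in a preparation of mitochondria. Most begin with an uninterrupted run of pyrimidines at the cap, the terminal oligopyrimidine motif, through which their translation is switched together by nutrient signalling via mTOR and LARP1.

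That shared start is shown for 8 members whose values are described below, because it is the sequence feature the group has in common and was not used to choose it. Each stretch runs 5′ to 3′ from 10 bases before the start site in RefSeq (GRCh38.p14) through the first 20 transcribed bases, and capitals mark the run of C and T that begins with C.
RPLP1, chr15:69452808-69452837, plus strand: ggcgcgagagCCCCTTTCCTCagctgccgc
RPL11, chr1:23691796-23691825, plus strand: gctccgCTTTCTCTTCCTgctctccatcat
RPL4, chr15:66504836-66504865, minus strand: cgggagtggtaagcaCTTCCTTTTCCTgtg
RPL19, chr17:39200313-39200342, plus strand: agctctttCCTTTCgctgctgcggccgcag
RPL24, chr3:101686699-101686728, minus strand: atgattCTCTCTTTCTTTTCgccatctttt
RPL27A, chr11:8682782-8682811, plus strand: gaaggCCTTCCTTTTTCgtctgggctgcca
RPL37A, chr2:216498834-216498863, plus strand: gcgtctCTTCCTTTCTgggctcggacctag
RPL38, chr17:74203668-74203697, plus strand: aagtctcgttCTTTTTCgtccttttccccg

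The search took a C followed by at least 4 further C or T bases, beginning within 5 bases of a listed start, on the gene's own strand; where a gene had several starts, the longest run was used. Of the 44 members 37 were in the promoter table, and 32 of these (86.5%) held such a run. Among 27305 gene symbols in the table the share was 25.2%. It was 84.0% for the 25 small-subunit genes found there, 33.3% for 27 ribosome biogenesis genes and 19.0% for 42 proteins of the mitochondrial large subunit. RPL6, RPL9, RPL15, RPL17 and RPL27 had no such run at a listed start. In RPLP1 the run starts at the listed first base, and in RPL11, RPL24 and RPL37A it starts a few bases earlier.

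Libraries differed widely in depth. Total counts on genes were 240683 and 60854 in the controls, 43556 and 29350 with 10 µM, and 2141282 and 1338397 with 100 µM. Genes of the mitochondrial genome took 4.35% and 10.4% of counts in the controls, 43.7% and 61.1% with 10 µM, and 3.58% and 3.32% with 100 µM, so shares are given below over counts on nuclear genes. Of 12 hepatocyte markers, 8 and 6 had a count in the controls, 7 and 2 with 10 µM, and 11 and 10 with 100 µM. Their summed share of nuclear counts was 0.632% and 1.57% in the controls, 0.0775% and 0.0351% with 10 µM, and 1.15% and 1.12% with 100 µM. Of 12 markers of other cell types, 1 to 5 had a count. They summed to 0.0235% and 0.0220% of nuclear counts in the controls, 0.0245% and 0.0789% with 10 µM, and 0.00397% and 0.00355% with 100 µM. In the second 10 µM library that sum was above the hepatocyte markers' sum, on 9 counts against 4. The part of these markers in the results below was not tested.

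The large-subunit genes made up a few percent of nuclear counts in the controls and at 100 µM and less than a percent at 10 µM. They took 2.09% (exact 95% binomial interval 2.03% to 2.15%) and 4.26% (4.09% to 4.43%) of nuclear counts in the controls. At 10 µM they took 0.151% (0.106% to 0.208%), or 37 counts, and 0.403% (0.295% to 0.538%), or 46 counts. At 100 µM the shares were 2.998% (2.97% to 3.02%) and 3.38% (3.35% to 3.41%). Both 10 µM libraries lay below all 4 others, and both 100 µM libraries lay between the 2 controls. These intervals cover counting error only, and the controls differed from each other by far more than their intervals.

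The mean share was 3.17% ± 1.53 (SD, n = 2) in the controls, 0.277% ± 0.178 (SD, n = 2) at 10 µM and 3.19% ± 0.272 (SD, n = 2) at 100 µM. The difference of 10 µM from control was -2.90 percentage points (exact two-sided permutation test, p = 0.333, which is the smallest p that 2 against 2 libraries allow). It was -3.98 without the first control and -1.81 without the second. The difference of 100 µM from control was 0.0156 percentage points (exact permutation test, p = 1), and that of 100 µM from 10 µM was 2.91 percentage points (exact permutation test, p = 0.333). Adjusted over the 9 permutation tests made, the lowest value was 0.6. The sign of the difference between 100 µM and control depended on single libraries: it was -1.07 percentage points without the first control and 1.10 without the second. In bulk RNA of a mitochondrial preparation, fewer such transcripts per cell and fewer cytosolic transcripts in the preparation cannot be told apart.

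**Figure D1:**
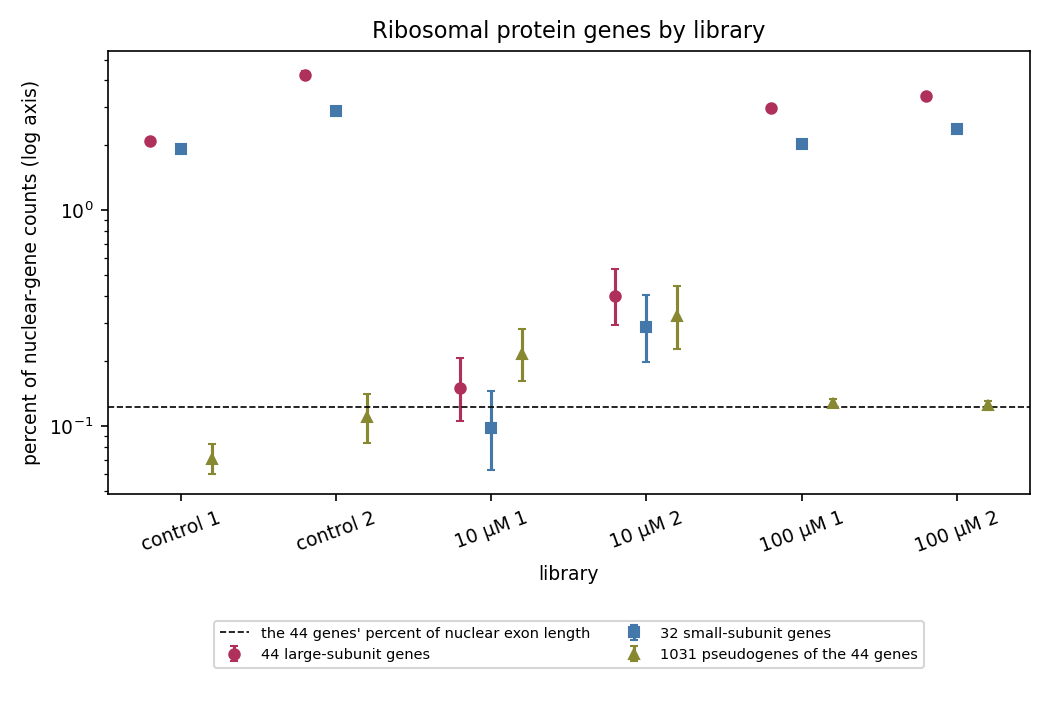
Percent of nuclear-gene counts (log axis) in each of the 6 libraries for the 44 large-subunit genes, the 32 small-subunit genes and the 1031 pseudogenes of the large-subunit genes, with exact 95% binomial intervals; the dashed line is the 0.123% of nuclear exon length that the 44 genes cover. The 10 µM libraries sit at 0.151% and 0.403% for the large subunit, below the 2.09% to 4.26% of the other libraries, while the pseudogenes there, at 0.216% and 0.324%, sit above their 0.0708% to 0.128% elsewhere.

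Detection followed the counts. All 44 members had a count in the first control and in both 100 µM libraries, and 43 in the second control, where RPL3 was at 0. At 10 µM 17 and 20 members had a count, 8 of them in both libraries, and 15 members had none in either. The largest count of any member at 10 µM was 9, for RPL37A. When each library was thinned to the 11406 nuclear counts of the shallowest, 40 and 35 members had a count in the controls, 11 and 20 with 10 µM, and 41 and 42 with 100 µM. In the same thinned libraries the members summed to 228 and 475 counts in the controls, 19 and 46 with 10 µM, and 337 and 367 with 100 µM.

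Set against length, the group stood above the average nuclear gene by a factor that shrank at 10 µM. The 44 genes cover 0.123% of the exon length of nuclear genes. Their counts per megabase of exon were 17.0 and 34.6 times those of all nuclear genes in the controls, 24.4 and 27.5 times with 100 µM, and 1.23 and 3.28 times with 10 µM. In the first 10 µM library the interval of the members' share, 0.106% to 0.208%, includes 0.123%, their share of length.

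Annotated pseudogenes of the members were counted as well. The tables list 1031 of them, covering 562 kb of exon, and most are intronless copies of the processed messenger RNA, so a read from a member can match them and the split of reads between gene and copy is uncertain. They held 163 and 60 counts in the controls, 53 and 37 with 10 µM, and 2649 and 1622 with 100 µM. Their ratio to the members' own counts was 0.0339 and 0.0259 in the controls, 1.43 and 0.804 with 10 µM, and 0.0428 and 0.0371 with 100 µM. The difference of 10 µM from control in the log2 of this ratio was 5.18 (exact permutation test, p = 0.333, the smallest possible). In the first 10 µM library RPL10P15, RPL12P21 and RPL31P53 had the most counts, 8, 6 and 6, and 0 in both 100 µM libraries. RPL13P12 came next with 5, against 64 and 36 at 100 µM. In the second 10 µM library RPL17P39 led with 6, against 5 and 7 at 100 µM. Whether reads of the members account for these counts was not tested.

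Read density on the pseudogenes was 0.170 and 0.264 times that of all nuclear genes in the controls, 0.519 and 0.779 times with 10 µM, and 0.308 and 0.301 times with 100 µM. Of members with a count on the gene or on its pseudogenes, those with at least as many pseudogene counts were 17 of 29 and 9 of 25 at 10 µM. In the other 4 libraries 0 to 2 of 44 members did. Adding the pseudogene counts to the members left the share of nuclear counts at 0.367% and 0.728% at 10 µM, against 2.16% and 4.37% in the controls. With 100 µM that sum was 3.13% and 3.51%.

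**Figure D2:**
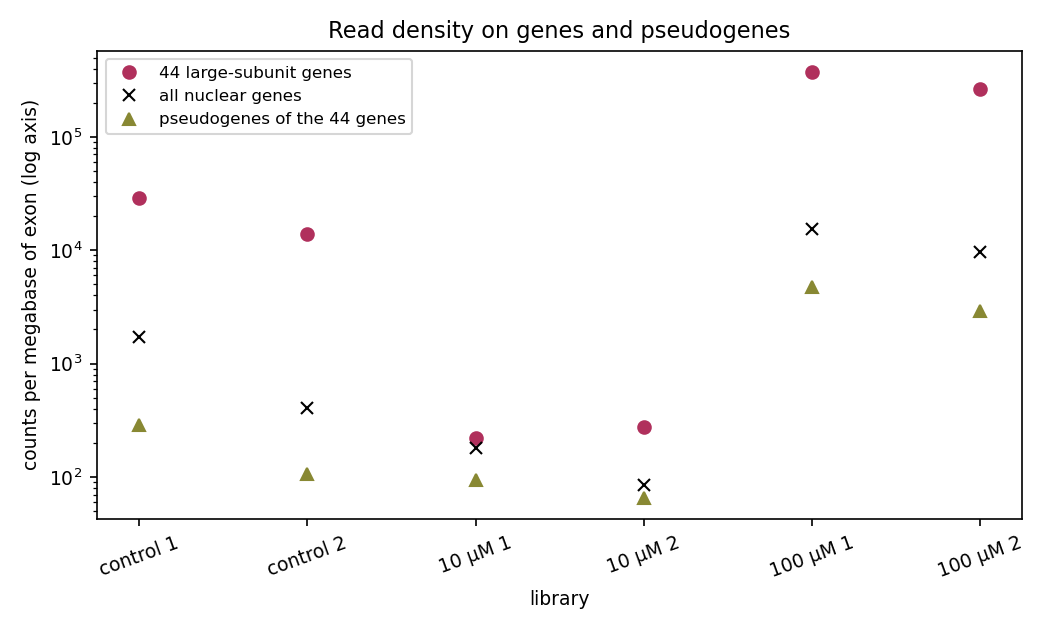
Counts per megabase of exon (log axis) in each library for the 44 large-subunit genes, for all nuclear genes and for the pseudogenes of the 44 genes. The members' density is 1.23 and 3.28 times that of all nuclear genes at 10 µM and 17.0 to 34.6 times in the other 4 libraries.

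The highest and lowest members differed 172-fold in counts in the first control and 32.3-fold and 26.9-fold at 100 µM. At 100 µM, where the counts are deepest, levels ran from 65.4 to 2113 CPM (a gene's count scaled to the library's total on all genes) in the first library, with a median of 528, and from 79.9 to 2147 CPM in the second, with a median of 595. Per kilobase of exon, the highest members at 100 µM were RPL8, RPL19, RPL13A and RPL35, which held the first 4 places in both libraries in differing order. RPL8 was at 731 and 719 CPM per kilobase, RPL19 at 667 and 834, RPL13A at 653 and 755, and RPL35 at 426 and 745. The spread between the 2 libraries was as large as the steps between these genes, so their order was not resolved. RPL30, which contributes to a bridge with the small subunit, was lowest per kilobase in both, at 19.4 and 31.4. The lengths used are those in the tables, which merge the exons of every isoform.

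**Figure D3:**
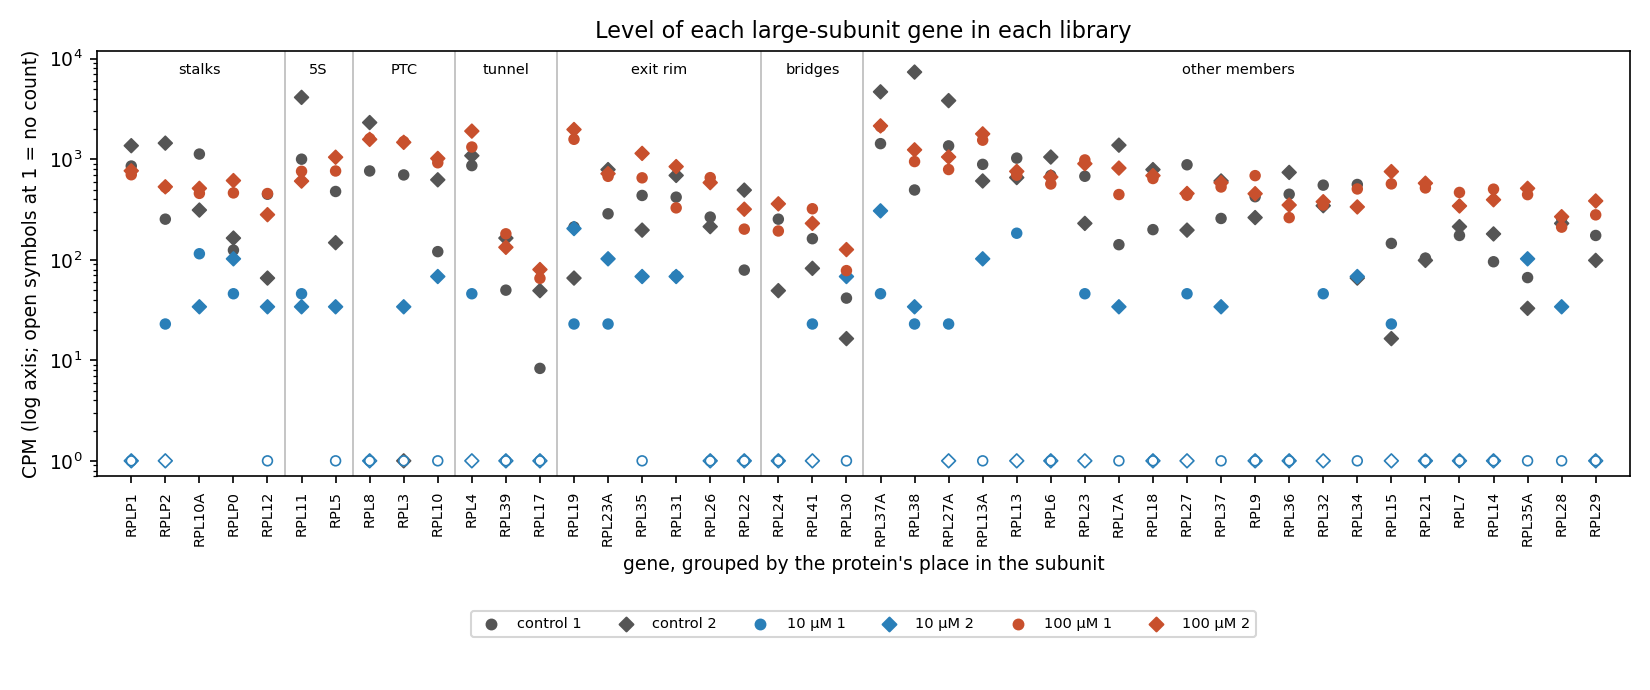
Level of each of the 44 genes in CPM (log axis) in each library, grouped by the protein's place in the subunit (PTC, peptidyl transferase centre); open symbols at 1 stand for libraries with no count. At 10 µM 27 and 24 genes had no count, and the others lay at or below 307 CPM.

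The makeup of the group was much less alike between the 2 controls than between the 2 libraries at 100 µM. Each member's share of the group's counts differed between the controls with an SD of 1.96 on the log2 scale, and 29 of 44 members differed by more than 2-fold, 13 of them by more than 4-fold. At 100 µM the SD was 0.43, and 1 member, RPL31, differed by more than 2-fold. Across the 44 genes, which are not independent replicates, Spearman's rho of the counts was 0.504 between the controls and 0.869 between the 100 µM libraries. The controls had 4813 and 2321 counts on members, and the 100 µM libraries 61898 and 43765.

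RPL38, a small protein known for its part in translating Hox messenger RNAs, held 2.47% (exact 95% interval 2.05% to 2.95%) of the group's counts in the first control and 19.3% (17.7% to 21.0%) in the second. At 100 µM it held 3.28% and 3.79%. RPL3, a core protein close to the peptidyl transferase centre, had 168 counts in the first control and 0 of 2321 member counts in the second, where the interval reaches 0.159%. It held 5.18% and 4.50% at 100 µM. The 5 most abundant members together held 29.7% and 58.5% of the group's counts in control libraries, compared with 28.8% and 28.7% at 100 µM.

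**Figure D4:**
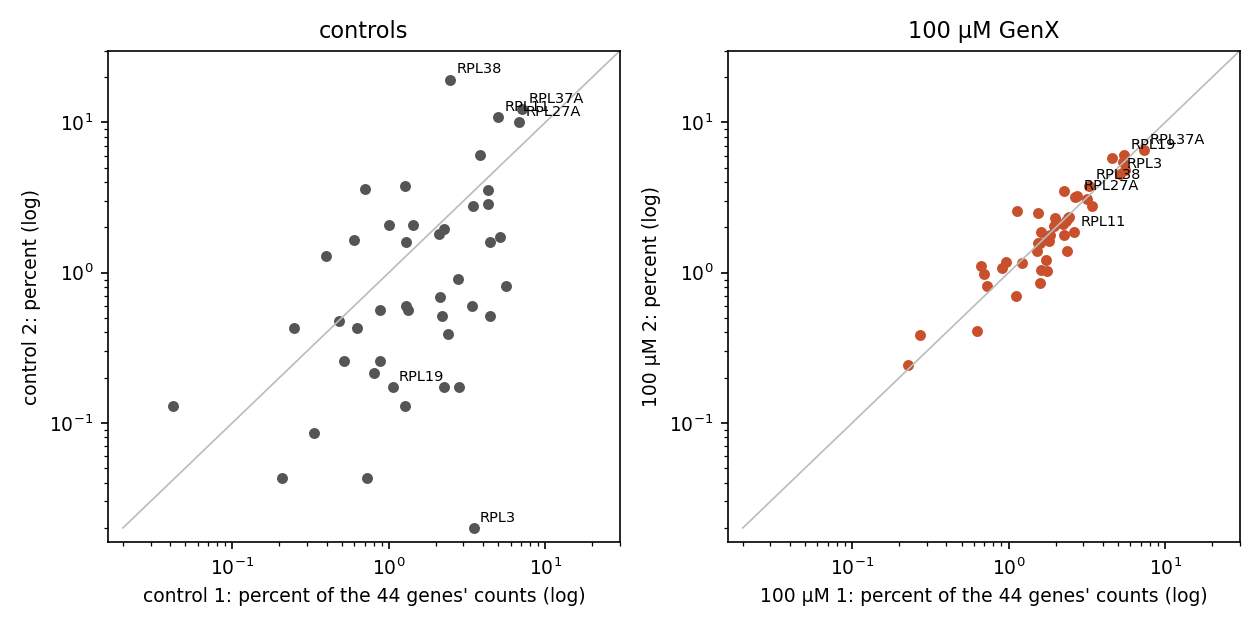
Each member's percent of the 44 genes' counts in the first library (horizontal, log axis) against the second (vertical, log axis) for the controls and for 100 µM; the line marks equal shares, and a share of 0 is drawn at 0.02%. The controls scatter widely, with RPL38 at 2.47% and 19.3% and RPL3 at 3.49% and 0%, while the 100 µM points lie along the line.

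Among the proteins of the 2 stalks (RPLP0, RPLP1, RPLP2, RPL12 and RPL10A), RPLP1 had the highest mean level. RPLP1 (ENSG00000137818; chromosome 15, 69452784 to 69456194, plus strand) is an acidic protein of the stalk that binds elongation factors. It was at 856 and 1364 CPM in the controls, 0 and 0 with 10 µM, and 701 and 767 CPM with 100 µM. Over the libraries of each group, its share of nuclear counts was 12.2-fold lower at 10 µM than in the controls, with the floor of 3 counts taken over the group. That fold was 3.86 without the first 10 µM library, 8.29 without the second, 18.2 without the first control and 10.7 without the second. RPLP0, the scaffold of that stalk, had 30 and 10 counts in control libraries and 2 and 3 with 10 µM, and its share of nuclear counts overlapped between those groups. The 5 stalk genes held 14.0% and 8.79% of the group's counts in control libraries, compared with 9.01% and 8.28% at 100 µM.

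RPL5 and RPL11 bind 5S ribosomal RNA, and outside the ribosome the same complex restrains MDM2, the regulator of p53. RPL11 (ENSG00000142676; chromosome 1, 23691779 to 23696425, plus strand) was at 1001 and 4125 CPM in the controls, 45.9 and 34.1 with 10 µM, and 759 and 606 with 100 µM. Both 100 µM libraries lay below both controls. Its partner RPL5 was at 478 and 148 CPM in the controls, below its 764 and 1048 CPM at 100 µM. Together the pair held 7.40% and 11.2% of the group's counts in control libraries, compared with 5.27% and 5.06% at 100 µM.

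RPL3, RPL8 and RPL10 reach the peptidyl transferase region, and RPL10 joins the subunit in a late step of its maturation. RPL8 (ENSG00000161016) was at 764 and 2317 CPM in the controls, 0 and 0 with 10 µM, and 1602 and 1576 CPM with 100 µM. RPL10 was at 120 and 624 CPM in the controls, 0 and 68.1 with 10 µM, and 922 and 1018 with 100 µM. The 3 genes held 7.92% and 7.71% of the group's counts in control libraries, compared with 13.9% and 12.4% at 100 µM, and they had 0 and 3 counts at 10 µM.

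RPL4, RPL17 and RPL39 line the exit tunnel. Together they held 4.61% and 3.40% of the group's counts in control libraries, compared with 5.43% and 6.48% at 100 µM. RPL4 (ENSG00000174444; chromosome 15, 66498015 to 66524532, minus strand) was at 864 and 1085 CPM in the controls, 45.9 and 0 with 10 µM, and 1323 and 1905 with 100 µM. RPL17 was the member with the fewest counts, 2 and 3 in the controls, none with 10 µM, and 140 and 107 with 100 µM. In CPM it was at 8.31 and 49.3 in the controls and at 65.4 and 79.9 with 100 µM. RPL17 shares 24.8% of its exon length with a readthrough gene on the same strand, which had 0 counts in all libraries, so how reads there were assigned is uncertain.

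At the tunnel exit, where the signal recognition particle and chaperones dock, lie RPL19, RPL22, RPL23A, RPL26, RPL31 and RPL35. RPL19 (ENSG00000108298; chromosome 17, 39200283 to 39204727, plus strand) was at 212 and 65.7 CPM in the controls, 23.0 and 204 with 10 µM, and 1579 and 1976 with 100 µM. Its 10 µM and control values overlapped, and its 100 µM values lay above both. The 6 genes held 8.50% and 6.42% of the group's counts in control libraries, compared with 14.2% and 17.1% at 100 µM. Within these sums RPL19 alone held 1.06% and 0.172% in the controls, compared with 5.46% and 6.04% at 100 µM.

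Bridges to the small subunit involve RPL24, RPL30 and RPL41. Together they held 2.29% and 0.388% of the group's counts in control libraries, compared with 2.05% and 2.19% at 100 µM, so the groups overlapped. RPL24 (ENSG00000114391; chromosome 3, 101681091 to 101686782, minus strand) was at 253 and 49.3 CPM in the controls, 0 and 0 with 10 µM, and 193 and 360 with 100 µM. The first control held 61 of its 64 control counts and the second 3, so no fold at the floor is given for it.

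The remaining 22 members held between 45.7% and 62.1% of the group's counts in every library. RPL37A (ENSG00000197756; chromosome 2, 216498189 to 216579180, plus strand), a small zinc-binding protein, had the highest mean CPM of all members over the 6 libraries, although in the controls the mean of RPL38 was higher, 3928 against 3056 CPM. It was at 1429 and 4683 CPM in the controls, 45.9 and 307 with 10 µM, and 2113 and 2147 with 100 µM. RPL27A (ENSG00000166441; chromosome 11, 8682411 to 8714759, plus strand) was at 1359 and 3829 CPM in the controls, 23.0 and 0 with 10 µM, and 790 and 1054 with 100 µM. RPL38 (ENSG00000172809; chromosome 17, 74203582 to 74210655, plus strand) was at 494 and 7362 CPM in the controls, 23.0 and 34.1 with 10 µM, and 948 and 1240 with 100 µM. The second control stood highest for these 3 genes. RPL13A (ENSG00000142541; chromosome 19, 49487554 to 49492308, plus strand), also known from a complex that silences inflammatory messenger RNAs, was at 889 and 608 CPM in the controls, 0 and 102 with 10 µM, and 1548 and 1788 with 100 µM. RPL13 (ENSG00000167526; chromosome 16, 89560657 to 89566828, plus strand) was at 1026 and 657 CPM in the controls, 184 and 0 with 10 µM, and 694 and 757 with 100 µM. RPL13 had 8 of the 37 member counts in the first 10 µM library and none in the second.

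The question of the 10 µM dose against control was taken gene by gene with edgeR's quasi-likelihood test over 3180 genes, with Benjamini-Hochberg adjustment and a threshold of 0.05. Of the 44 members 43 passed the filter on low counts, the exception being RPL17. The largest member count at 10 µM was 9, so members passed mainly through the other groups, which partly sets the direction they share. None of the 43 was called, against 19 of all 3180 genes (0.597%), while 30 of the 43 members had an unadjusted p under 0.05, all lower at 10 µM, as did 709 of all 3180 genes (22.3%). All 43 fitted log2 fold changes were below 0, with a median of -5.03 against -3.18 for all genes tested. The members' median was -9.46 without the first 10 µM library, -9.70 without the second and -3.54 with nuclear counts as library size. In the same settings the median of all genes tested moved too, to -6.05, -5.08 and -1.93. The SE here and below is the log2 fold change over the square root of edgeR's F statistic, not an error that the fit reports. The smallest adjusted p by edgeR was 0.0588, for RPL27A (log2 fold change -7.70 ± 1.51, SE) and for RPL8, and RPL38 followed with -7.13 ± 1.51 and 0.0731. Lower values stood in 2 of 2 libraries for these 3 genes. RPL11 had a log2 fold change of -6.05 ± 1.31, RPL37A of -4.32 ± 1.16, RPL4 of -5.43 ± 1.48, RPL13A of -4.36 ± 1.53 and RPL13 of -3.37 ± 1.55. Where the 10 µM library that held a gene's only counts was left out, the group was at 0 and the fitted value became -14.03 for RPL27A, -12.76 for RPL4, -12.48 for RPL13A and -12.68 for RPL13. RPL38 was at -5.23 without the second control.

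Fitted folds for genes with no count at 10 µM depend on the prior and are no bound. With such genes set to 3 counts over the group, the median log2 difference of the 44 members from the controls was -2.65 on the share of nuclear counts and -3.59 on all counts. On the share of nuclear counts, RPL27A had a ratio of control to 10 µM of 70.6 (exact counting interval 12.6 to 2795) on 1 count at 10 µM, and RPL38 a ratio of 35.8 (9.85 to 296) on 2. The ratio of RPL27A was 51.0 without the second control and 154 without the first, and that of RPL38 was 9.28 and 148. RPL8 was at least 13.7-fold lower, a bound that ran from 4.34 without the first 10 µM library to 31.0 without the first control. RPL19, with 7 counts at 10 µM and 55 in the controls, had a ratio of control to 10 µM share of 0.991 (0.450 to 2.58), so a difference was not detectable at this depth. Without the first control its ratio was 0.377, without the first 10 µM library 0.367 and without the second 4.73.

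On the share of nuclear counts, both 10 µM libraries lay below both controls for 34 of the 43 members tested (79.1%), against 31.7% of all genes tested. The 9 members of the 44 that overlapped were RPL3, RPL10, RPL12, RPL15, RPL19, RPL30, RPL34, RPL35A and RPLP0, and all but RPL10 had 10 counts or fewer in the second control. The calls depended on the controls and on the tool. Without the first control 18 of 42 members were called lower, as were 334 of 2888 genes (11.6%), and without the second 35 of 44 members, as were 810 of 6870 genes (11.8%). DESeq2's Wald test on the 3180 genes called 24 members lower and 386 genes in all (12.1%). Without either 10 µM library the count stayed at 0.

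Between 100 µM and 10 µM all 43 members tested had fitted log2 fold changes above 0. With only the control and 10 µM libraries the filter kept 25 members and 458 genes. Many members and other genes thus entered through high 100 µM counts, so the shared direction is partly set by the filter and is no support by itself. RPL8 alone among the members was called by edgeR's quasi-likelihood test, with an adjusted p of 0.0380. With the floor of 3 counts at 10 µM, its share of nuclear counts was 19.7-fold higher at 100 µM, in 2 of 2 libraries. That fold was 6.27 without the first 10 µM library. Among all 3180 genes 91 were called (2.86%), 24 of them higher at 100 µM (0.755%). An unadjusted p under 0.05 was found for 30 members, all higher, as for 939 of all 3180 genes (29.5%), and the 43 fitted log2 fold changes had a median of 4.93 against 3.52 for all genes. RPLP1 had an edgeR adjusted p of 0.0569 and RPL27A of 0.0633. The nuclear shares did not overlap for 42 of 43 members tested (97.7%), higher at 100 µM, against 63.1% of all genes tested. Genes with no count at 10 µM and a count in both 100 µM libraries are higher by construction, so that contrast is no support by itself. This comparison and the preceding one share the 10 µM libraries.

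The RPL8 call was lost without the first 10 µM library (edgeR adjusted p = 0.0673), without the first 100 µM library (0.154) and without the second (0.149). It was also lost with DESeq2's size factors (0.0538), with no filter on low counts (0.0859) and with summed member counts as library size (0.298), each by edgeR's quasi-likelihood test. Without the second 10 µM library 3 of 44 members were called higher, as were 36 of 6943 genes (0.519%). Without the first control 40 of 42 members were, as were 822 of 2888 genes (28.5%), and without the second 41 of 44, as were 927 of 6870 genes (13.5%), the controls entering this comparison through the filter, the scaling and the shared estimate of spread. By DESeq2's Wald test 13 members were called, all higher at 100 µM, as were 165 of 3180 genes (5.19%).

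Between 100 µM and control the members lay on both sides of 0 and none was called by edgeR, as was true of all 3180 genes (0%). One member, RPL11, had an unadjusted p under 0.05, lower at 100 µM, as did 192 of all genes (6.04%). DESeq2's Wald test called RPL11 alone of the members, lower at 100 µM (adjusted p = 0.0368), as were 183 of all genes (5.75%). The 43 fitted log2 fold changes had a median of -0.01 against 0.35 for all genes, 21 above 0 and 22 below. They ran from -2.35 ± 1.04 (SE) for RPL11 (edgeR adjusted p = 0.270) to 2.90 ± 1.37 for RPL19 (edgeR adjusted p = 0.293). RPL38 had -2.20 ± 1.13 and RPL27A had -1.97 ± 1.06. Without the first control 2 members were called, as were 103 of 2888 genes (3.57%). One of the members was RPL38 at an edgeR adjusted p of 0.0325, and without the second control RPL38 turned to 0.52.

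Members whose SE, computed from F as above, spanned 0 included the core proteins RPL8 at -0.43 ± 1.04 and RPL4 at 0.14 ± 1.13. The bridge protein RPL24, at 0.06 ± 1.59, was another. RPL13A had a log2 fold change of 0.49 ± 1.24, RPL37A of -0.99 ± 0.99, RPLP1 of -1.15 ± 1.13 and RPL13 of -0.89 ± 1.37. The median of the members was -0.49 with DESeq2's size factors and 0.47 with nuclear counts as library size, so no direction holds for the group across scalings.

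**Figure D5:**
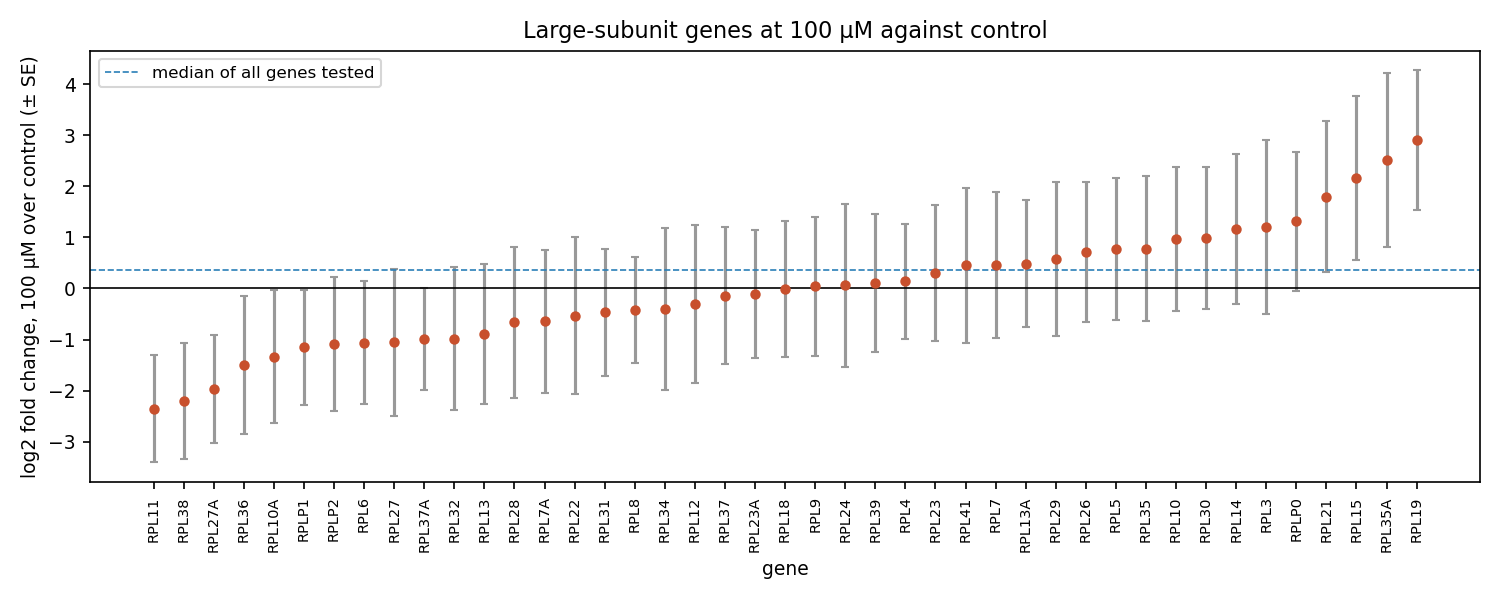
Log2 fold change at 100 µM over control for the 43 members tested, in order of size, with its SE computed from edgeR's F statistic (2 libraries per group). The dashed line is the median of all genes tested, 0.35. The values run from -2.35 for RPL11 to 2.90 for RPL19, with 21 above and 22 below 0.

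On the share of nuclear counts, both 100 µM libraries lay above both controls for 19 of 43 members tested (44.2%), against 47.8% of all genes tested, and below both for 5 (11.6%), against 10.4%. The 5 lower members were RPL6, RPL11, RPL27A, RPL36 and RPLP1. As a share of the group's own counts, which removes any change the whole group had in common, 20 members were higher at 100 µM without overlap. Another 5 were lower, those same genes, and 19 overlapped. This rescales the same counts, has no counterpart over all genes and is no separate evidence of a changed makeup. In the second control the 5 most abundant members held 58.5% of the group's counts, which lowers the other shares there. RPL19 held 1.06% and 0.172% of the group's counts in control libraries, compared with 5.46% and 6.04% at 100 µM. RPL11 held 5.01% and 10.8% in the controls, compared with 2.63% and 1.85% at 100 µM, and RPL27A 6.79% and 10.0% in the controls, compared with 2.73% and 3.22% at 100 µM.

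The small-subunit genes, whose products assemble separately and join the large subunit at initiation, were read beside the members. The 32 genes took 1.92% and 2.88% of nuclear counts in the controls, 0.0979% and 0.289% with 10 µM, and 2.03% and 2.38% with 100 µM. The ratio of large-subunit to small-subunit counts was 1.09 and 1.48 in the controls, 1.54 and 1.39 with 10 µM, and 1.48 and 1.42 with 100 µM. The log2 ratio differed from control by 0.21 at 10 µM (exact permutation test, p = 0.667) and by 0.19 at 100 µM (exact permutation test, p = 1). It differed by -0.02 between 100 µM and 10 µM (exact permutation test, p = 1). Of 32 small-subunit genes tested 0 were called in the 3 comparisons by edgeR, with medians of -5.47 (10 µM to control), -0.42 (100 µM to control) and 5.02 (100 µM to 10 µM).

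Other genes of the translation machinery were read in the same fits. Of 14 translation factors and related genes tested, 0 were called at 10 µM against control (median -4.25), 0 at 100 µM against control (median 0.66) and 2 higher at 100 µM against 10 µM (median 4.70), EEF1A1 and TPT1. EEF1A1, the factor that brings aminoacyl-tRNA to the ribosome, had 79 and 101 counts in the controls, 1 and 1 with 10 µM, and 6939 and 4059 with 100 µM. These counts are not scaled to depth, and its log2 fold change at 100 µM over control was 1.23 ± 1.01 (SE, edgeR adjusted p = 0.527). Of 31 ribosome biogenesis genes 12 were tested, and of 49 proteins of the mitochondrial large subunit 7, with 0 called in any comparison. RPL36AL, an intronless copy of RPL36A, had 3 and 1 counts in the controls, 1 and 0 with 10 µM, and 1060 and 517 with 100 µM. Scaled to depth, its log2 fold change at 100 µM over control was 4.32 ± 1.77 (SE, edgeR adjusted p = 0.241).

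Transcripts retained in the nucleus also moved with the 10 µM libraries. MALAT1, a long noncoding RNA of nuclear speckles, took 14.1% and 5.15% of nuclear counts in the controls, 0.0694% and 0.114% with 10 µM, and 2.99% and 2.69% with 100 µM. Both MALAT1 and NEAT1 were called lower at 10 µM than in the controls and higher at 100 µM than at 10 µM by edgeR. The hepatocyte marker APOA2 was called in the same directions. With MALAT1 and NEAT1 left out of the nuclear counts, the members' share was 2.45% and 4.53% in the controls, 0.151% and 0.404% with 10 µM, and 3.11% and 3.49% with 100 µM, and the difference of 10 µM from control was -3.21 percentage points (exact permutation test, p = 0.333). The part of APOA2 was not tested.

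Many members host small nucleolar RNAs in their introns or share exon bases with neighbours. Within 18 members lie 39 small nucleolar RNA genes, and they held 1 count over the 6 libraries. Exon bases were shared with another gene on the same strand by 18 members and with any gene by 26, and no member shared over 50% of its length with 1 gene on the same strand. How reads in shared bases were assigned is not given in the sources used here.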

How the data were processed

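RNA was measured in mitochondrial preparations of HepG2 cells, 2 libraries per dose. The authors deposited raw counts per gene, 1 table per library in the layout of featureCounts. The submitters' processing notes name FastQC, STAR, featureCounts, DESeq2 and GRCh38; versions, annotation release, strand setting and handling of multiply mapped reads are not given in the sources used here, and that handling decides how reads are split between a gene and its pseudogenes. Symbols came from GENCODE release 29. Groups came from the sample titles. CPM, shares of nuclear counts with exact binomial intervals, and counts per kilobase were computed from the counts. edgeR 4.0.16 (R 4.3.3) was fitted to all 6 libraries with TMM scaling, filterByExpr and a robust quasi-likelihood test, with Benjamini-Hochberg adjustment over 3180 genes. The fit was also run on simulated counts with a fixed spread and a shared profile for all libraries. That setting is simpler than these data, so it is no check of the calls here. Permutation tests used scipy 1.17.1, and DESeq2 1.42.0 was an alternative. No table line lacked a gene (0).

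The members and lists were chosen with earlier results of these data known. Full values are given for members called in any comparison, the 3 with the smallest p in each, the member highest by mean CPM in each place in the subunit, and the 3 highest by CPM in each group. The alternatives were other scalings, filters and denominators, the fit to the compared groups alone, the replicate number as a block, and leaving out each library. The addition of pseudogene counts, the thinning of libraries (a seeded draw), the read densities and the count ratios leaving out 1 library were chosen after seeing the data.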

Additional observations from a re-analysis of the deposited data

How the results depend on the processing

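The members had 83 counts in all at 10 µM. Relative to 19 genes called between 10 µM and control, edgeR called 7 with library sizes alone, 1 with nuclear counts as library size, 37 with summed member counts as library size, 7 with no filter, 95 with a minimum mean of 5 CPM, 206 with only the 4 libraries compared and 4 to 861 leaving out 1 library; DESeq2's Wald test called 554. Members called, 0 in that fit, were 24 by DESeq2's Wald test, 6 with the minimum of 5 CPM, 10 with the 4 libraries alone and 0 to 35 leaving out 1 library. For 100 µM against control, where edgeR called 0 genes and 0 members, DESeq2's size factors gave 4 genes, DESeq2's Wald test 244 genes and 1 member, and leaving out 1 library 0 to 204 genes and 0 to 2 members. For 100 µM against 10 µM, with 91 genes and 1 member, library sizes alone gave 159 genes and 5 members, summed member counts 154 and 0, DESeq2's size factors 0 members, DESeq2's Wald test 383 and 13, no filter 3 and 0, the minimum of 5 CPM 291 and 15, the 4 libraries alone 258 and 12, and leaving out 1 library 16 to 1272 and 0 to 41. The cause was not tested. Summed member counts as library size remove a change common to the members by construction.

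Replicate numbers did not pair the libraries: the correlations of same-numbered deviations were 0.000331, 0.00315 and -0.0222. With the replicate number as a block, edgeR called 75 genes and 6 members between 10 µM and control, 22 genes and 0 members between 100 µM and control, and 136 genes and 4 members between 100 µM and 10 µM, where the members' median was 5.20.

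The members' median log2 fold change between 10 µM and control was -3.54 with nuclear counts as library size, -0.31 with summed member counts, and -9.70 to -5.02 leaving out 1 library. Between 100 µM and control it was 1.02 with the minimum of 5 CPM and 0.34 to 0.88 leaving out 1 library. Between 100 µM and 10 µM it was 3.95 with DESeq2's size factors, 3.95 by DESeq2's Wald test, 5.28 with library sizes alone, 4.30 with nuclear counts, 0.63 with summed member counts, 6.20 with no filter, 6.68 with the minimum of 5 CPM, 5.15 with the 4 libraries alone and 5.56 to 10.67 leaving out 1 library.

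Signs turned for the following values. The share difference between 100 µM and control was -0.191 percentage points without MALAT1 and NEAT1 in the denominator, -0.218 over protein-coding counts, and -1.07 to 1.10 leaving out 1 library. The log2 ratio of the subunits, taken between gene medians, differed by -0.22 between 10 µM and control and by 0.54 between 100 µM and 10 µM; leaving out 1 library it ran from -0.0149 to 0.43 between 10 µM and control, from -0.0303 to 0.41 between 100 µM and control, and from -0.0880 to 0.0573 between 100 µM and 10 µM. With summed member counts as library size, log2 fold changes between 10 µM and control were 1.63 for RPL13, 0.17 for RPL13A, 3.68 for RPL19 and 0.38 for RPL37A, and between 100 µM and 10 µM -0.73 for RPL11, -2.17 for RPL13, -0.47 for RPL19 and -0.86 for RPL37A. RPL19 at 10 µM was 0.80 with nuclear counts and -3.48 to 0.56 leaving out 1 library. Between 100 µM and control, DESeq2's size factors gave -0.32 for RPL4 and -0.38 for RPL24, and DESeq2's Wald test the same -0.32 and -0.38. RPL8 was 0.0483 with library sizes alone, 0.0668 with summed member counts, 0.33 with no filter, 0.69 with the minimum of 5 CPM and -0.29 to 0.43 leaving out 1 library. The minimum of 5 CPM gave 0.0837 for RPL13 and 0.14 for RPL37A. Leaving out 1 library, RPL13 ran from -1.12 to 0.39, RPL24 from -0.49 to 2.72 and RPL38 from -2.51 to 0.52.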
